A study of Homo sapiens with 2 samples.

Results

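The BCL2 family decides whether a stressed cell opens the outer membrane of its mitochondria and dies by apoptosis. Anti-apoptotic members (BCL2, BCL-xL, MCL-1, A1) hold the pore-forming effectors BAX and BAK in check, and BH3-only members (BIM, BID, BIK, BMF and others) either occupy the anti-apoptotic proteins or activate the effectors. In squamous epithelia, MCL-1 and BCL-xL are known as main survival proteins of keratinocytes, and BIM and BMF are known for their part in anoikis, the death of epithelial cells that lose their matrix contact. The members described here are the genes BCL2, BCL2L1 (BCL-xL), BCL2A1 (A1), MCL1, BCL2L11 (BIM), BAX, BAK1, BID, BIK and BMF. They were chosen by name, as every probe set whose platform annotation gives 1 of these 10 genes alone, which gave 30 of the 54613 probe sets that are not controls, for 10 of the 19775 genes with a probe set of their own.

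Levels were measured in 2 stably transduced populations of Ca9-22, a human line from a gingival squamous carcinoma, one carrying a vector for the runt-domain transcription factor RUNX2 and the other an empty vector, both selected with blasticidin. The labels do not say whether a population was a clone or a pool. Total RNA of each was hybridised to 1 Affymetrix human array, so there are no replicates and no p-value, and the precision of each value is limited by having 1 array a group. Levels are intensities in arbitrary units, with the array labelled RUNX2 multiplied by 0.966 to equal the trimmed means of both arrays. They can be compared between the arrays for 1 probe set but not between probe sets. A probe set counted as measured when it exceeded the floor, the median of the array (51.8 on the array labelled RUNX2 and 55.3 on the empty vector array), on at least 1 array. A value under the floor was raised to it, which makes the ratio a bound, written "at least".

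The RUNX2 probe sets did not settle the labels, so every direction below rests on the sample titles. The RUNX2 probe set 216994_s_at read 854 on the array labelled RUNX2 and 204 on the empty vector array, and 221282_x_at read 353 and 102, but 232231_at read 433 and 1746, the opposite direction. All 8 squamous epithelial markers with a probe set of their own were measured on these arrays. Their summed level, in which the brightest probe sets weigh most, was 56145 on the array labelled RUNX2 and 46744 on the empty vector array. By gene they went both ways, 4 above and 4 below 0, with a median log2 ratio of 0.02. Only the basal keratin KRT14 passed 1.5-fold, being 2.69-fold higher (1579 against 586). The part of these differences in the members' values was not tested. Markers of other cells were mostly under the floor, with 3 of 8 leukocyte, 1 of 8 fibroblast, 2 of 7 endothelial and 2 of 3 melanocyte markers measured. Their summed levels on the array labelled RUNX2 were 208, 1553, 111 and 111 in that order of cell types. On the empty vector array they were 230, 1937, 144 and 127. The fibroblast sum is COL1A1 alone, by its brightest probe set, 1556499_s_at. The other measured COL1A1 probe sets ran only up to 152 on the array labelled RUNX2 and 200 on the empty vector array. All 5 probe sets of PTPRC, the pan-leukocyte CD45 gene, lay under the floor on both arrays.

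Promoter windows in RefSeq's sequence table (GRCh38.p14, 250 bases before to 50 after a gene start) matched 8 of the 10 members, with 14 windows in all; MCL1 and BIK were not matched. The windows of BCL2L11, BMF and BCL2L1 are shown here because they belong to the BH3-only genes that were lower on the array labelled RUNX2 and to BCL2L1, 1 of the 2 anti-apoptotic members with a match to the RUNX core motif (the other is BCL2, which lay near the floor). Capitals mark TGTGGT, the core that RUNX proteins bind (ACCACA on the other strand), and GTAAACA, the core bound by FOXO factors, which are known activators of the BIM gene (TGTTTAC on the other strand). The BCL2L11 window is chr2:111120664-111120963 on the plus strand, the BMF window is chr15:40108830-40109129 on the minus strand, and the BCL2L1 window, the more upstream of 2, is chr20:31723914-31724213 on the minus strand. Each sequence runs 5′ to 3′ on the strand of its gene.
BCL2L11: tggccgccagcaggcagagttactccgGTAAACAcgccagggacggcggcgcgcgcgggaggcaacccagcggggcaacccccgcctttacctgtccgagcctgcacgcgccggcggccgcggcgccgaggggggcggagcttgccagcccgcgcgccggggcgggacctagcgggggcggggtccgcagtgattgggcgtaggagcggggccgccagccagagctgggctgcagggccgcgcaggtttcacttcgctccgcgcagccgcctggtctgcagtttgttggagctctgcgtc
BMF: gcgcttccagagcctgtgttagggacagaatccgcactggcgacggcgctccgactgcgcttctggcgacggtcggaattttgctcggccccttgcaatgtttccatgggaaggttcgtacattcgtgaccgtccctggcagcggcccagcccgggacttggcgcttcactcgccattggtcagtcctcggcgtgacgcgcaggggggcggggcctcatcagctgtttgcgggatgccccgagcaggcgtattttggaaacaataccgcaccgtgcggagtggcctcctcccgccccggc
BCL2L1: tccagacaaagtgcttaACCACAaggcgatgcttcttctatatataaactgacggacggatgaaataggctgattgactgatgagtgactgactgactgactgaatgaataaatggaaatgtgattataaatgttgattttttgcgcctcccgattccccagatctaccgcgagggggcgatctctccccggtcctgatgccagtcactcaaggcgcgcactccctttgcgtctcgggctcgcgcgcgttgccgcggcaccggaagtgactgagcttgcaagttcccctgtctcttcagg
The BCL2L11 window held 1 FOXO core, starting 223 bases before the gene start, and no RUNX core. The BMF window held no match to either core, nor did a second BMF window further into the locus. The BCL2L1 window shown held 1 RUNX core in the other-strand spelling, starting 233 bases before the gene start, and the other BCL2L1 window held 0. Across all 35116 windows of this length, 13.1% held the RUNX core and 3.42% the FOXO core, and among the 14 windows of the members 2 held the RUNX core (BCL2L1 and BCL2) and 1 the FOXO core. The E-box CACGTG, which MYC and related factors bind, reads the same on both strands. It stood 4 times in the BAX window, and 5 of all 35116 windows held 4 or more. In each of 2 overlapping BID windows it stood once, at the same site. At least 1 E-box was held by 3 of the 14 windows of the members, against 7.26% of all windows. These matches are descriptions of letters in the windows, not binding sites. The GC content of the members' windows ran from 41% in BCL2A1 to 78% in a BID window, against a median of 58.7% over all windows.

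Of the 30 probe sets, 22 were measured and 8 lay under the floor on both arrays. The members went in different directions by gene. MCL1, BCL2L1, BAX, BAK1, BID and BIK were higher on the array labelled RUNX2 in every measured probe set, BCL2L11 and BMF were lower in every measured probe set, BCL2 went both ways near the floor, and BCL2A1 was not measured. By probe set, 15 of 22 had a log2 ratio above 0, against 45.3% of all 28610 measured probe sets, and 7 had one below 0. At least 2-fold higher were 2 probe sets, both of MCL1, against 1.63% of all measured probe sets. At least 2-fold lower was 1, that of BMF, against 1.24%. At 1.5-fold the counts were 4 higher, all of MCL1, and 3 lower, with 6.97% and 6.21% of all measured probe sets past that size. Probe sets of 1 gene read the same RNA and are not replicates.

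**Figure D1:**
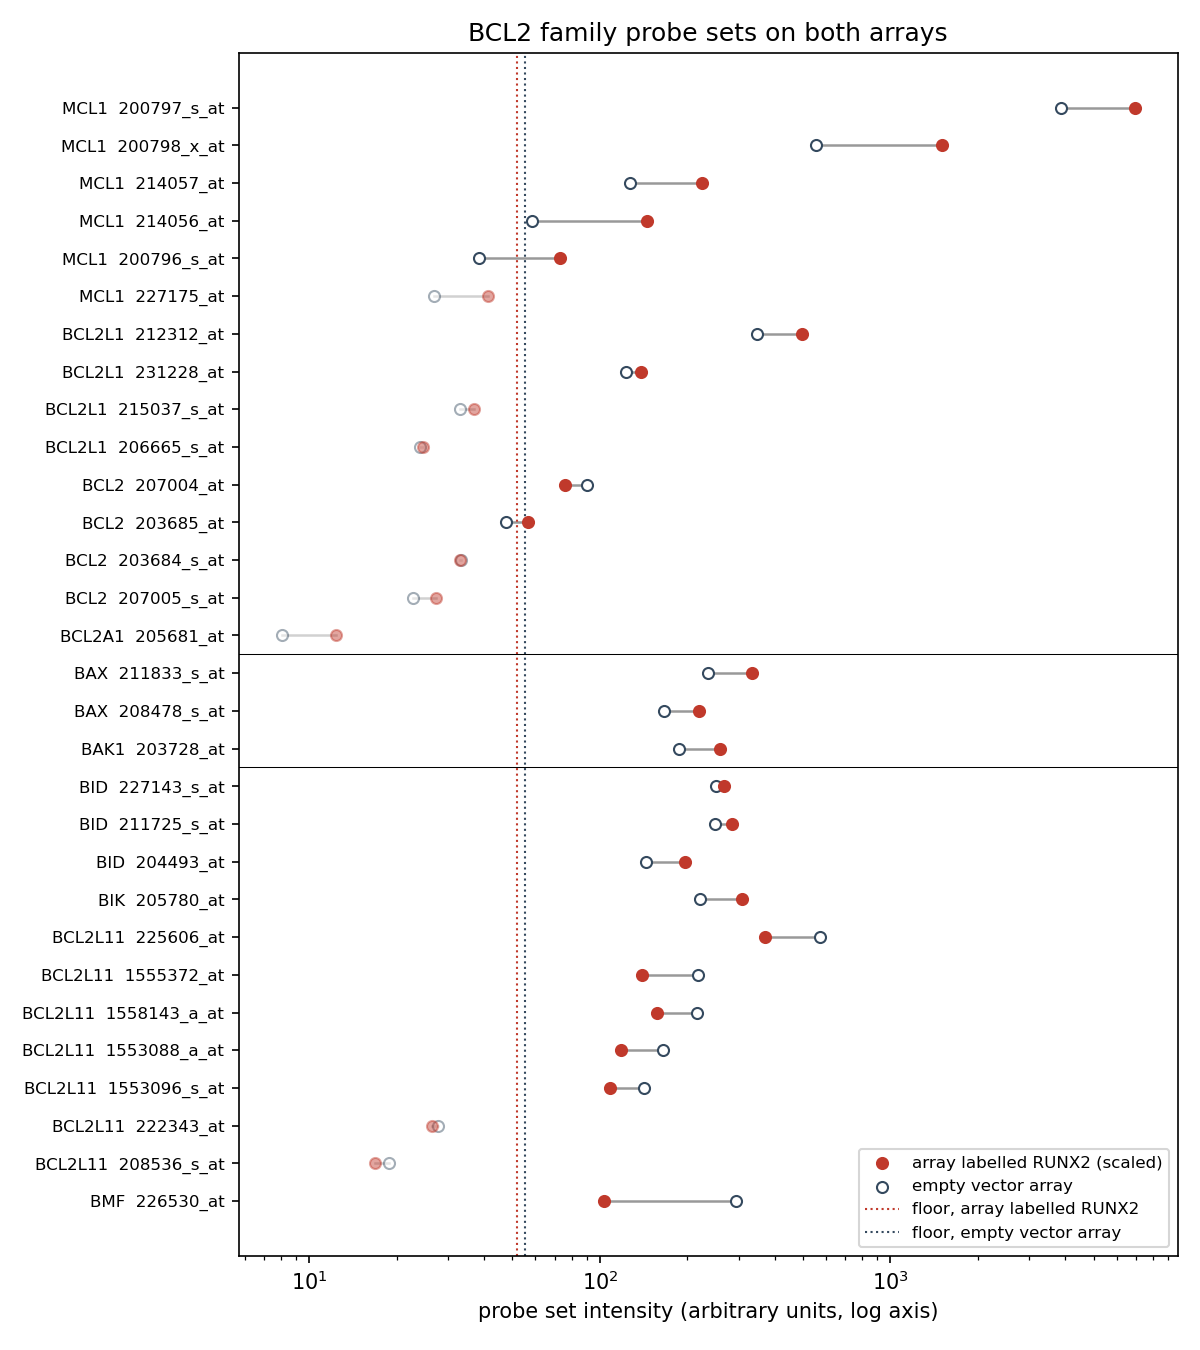
Intensity of all 30 BCL2 family probe sets on a log axis in arbitrary units, with filled points for the array labelled RUNX2 (scaled) and open points for the empty vector array, and dotted lines at the floors of 51.8 and 55.3. Pale rows are under the floor on both arrays. Horizontal lines separate anti-apoptotic members, effectors and BH3-only members. MCL1 is shifted right in each row, and BCL2L11 and BMF are shifted left in each row above the floor.

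With 1 probe set standing for each gene, the one with the highest mean log2 level, 9 of the 10 genes were measured. Upwards 0 of them passed 2-fold and downwards 1 did, BMF, against 1.42% and 1.47% of all 12729 measured genes. At 1.5-fold, 1 gene (MCL1) was higher and 2 (BMF and BCL2L11) were lower, against 5.77% and 6.87% of all measured genes. The 9 genes had a median log2 ratio of 0.47, and the median over all measured genes was -0.06. Of the 9 genes, 6 lay above 0 and 3 below, where 42.7% of all measured genes lay above 0 and 57.3% below. The 3 include BCL2, which lay near the floor and from which no direction is read. As a yardstick for single values, log2 ratios of probe sets of the same gene spread with an SD of 0.293 over 6165 genes. This spread comes from 1 pair of arrays and holds no spread between replicate cultures. It is not purely technical, since differences between the 2 populations that reach only some probe sets of a gene enter it. RUNX2, with log2 ratios from -2.01 to 2.06, is 1 of its genes. None of the 30 probe sets had the same deposited value on both arrays, as 1447 probe sets of the whole table did.

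Among the anti-apoptotic members, MCL1 showed the widest difference. It encodes a short-lived survival protein that binds BIM, NOXA and BAK. Its brightest probe set, 200797_s_at, read 6931 on the array labelled RUNX2 and 3858 on the empty vector array, 1.80-fold higher (log2 ratio 0.85). The probe set 200798_x_at read 1501 against 555, 2.70-fold higher, and 214056_at read 145 against 58.5, just above the floor on the empty vector array, 2.48-fold higher. MCL1 therefore passed 2-fold in these probe sets but not in the one that stands for the gene. The probe set 214057_at read 224 against 127, 1.77-fold higher. In 200796_s_at the level was 72.8 against 38.5, which is under the floor on the empty vector array, so the ratio is at least 1.32-fold. A further one, 227175_at, was under the floor on both arrays, at 41.3 and 26.9.

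The MCL1 probe sets thus agreed in direction and not in size, with log2 ratios between 0.40, a bound, and 1.44. The x in the name 200798_x_at marks a set whose probes may match other transcripts too. Of all measured probe sets, 2.63% had a ratio as high as that of 200797_s_at, and 0.486% one as high as that of 200798_x_at. Among the 427 measured probe sets within 0.5 log2 units of the level of 200797_s_at, where log2 ratios had an SD of 0.352, 1.64% reached its ratio. All measured probe sets lay above 0 in 55 (13.3%) of the 413 genes with at least 5 measured probe sets, MCL1 being 1 of them.

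BCL2L1 encodes BCL-xL, and by alternative splicing the short pro-apoptotic form BCL-xS, which the annotation of these probe sets does not separate. The brightest probe set, 212312_at, read 497 on the array labelled RUNX2 and 346 on the empty vector array, 1.44-fold higher (log2 ratio 0.52). The other measured one, 231228_at, read 138 against 123, 1.12-fold higher. The probe sets 206665_s_at (24.7 against 24.1) and 215037_s_at (37.0 against 33.0) were under the floor on both arrays. The difference in 212312_at was reached by 8.63% of all measured probe sets.

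BCL2, the founding member of the family, was close to the floor. The probe set 207004_at read 75.9 on the array labelled RUNX2 and 90.1 on the empty vector array, a log2 ratio of -0.25, within the SD between probe sets of 1 gene. The probe set 203685_at read 56.6 against 47.7, a bound of at least 1.02-fold higher, and the other 2 were under the floor, at 33.0 and 27.3 against 33.3 and 22.8. No direction is read from these values. BCL2A1, an NF-kB target known mainly from blood cells, had 1 probe set, 205681_at, with 12.4 against 8.03, both under the floor, so no ratio is given.

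Both effectors were moderately higher on the array labelled RUNX2. For BAX, which moves from the cytosol to mitochondria when activated, 211833_s_at read 334 against 235 on the empty vector array, 1.42-fold higher, and 208478_s_at read 220 against 166, 1.32-fold higher. For BAK1, whose protein sits on mitochondria already, the single probe set 203728_at read 259 against 187, 1.38-fold higher. All 3 probe sets lay above 0, with log2 ratios of 0.40 to 0.50. Ratios of this size were common: 9.15% of all measured probe sets reached that of 211833_s_at and 13.2% that of 208478_s_at.

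The BH3-only members split. BMF, whose protein binds the dynein light chain and is tied to the actin cytoskeleton, had the widest difference of the family. Its only probe set, 226530_at, read 103 on the array labelled RUNX2 and 293 on the empty vector array, 2.83-fold lower (log2 ratio -1.50). Both values were above the floor. Of all measured probe sets, 0.262% were as low, and of the 5868 within 0.5 log2 units of its level, where log2 ratios had an SD of 0.476, 0.443% were. The rule gave BMF no other probe set to set beside this one. With the floor raised to the 75th percentile of each array the BMF log2 ratio became a bound of -0.54, short of 2-fold.

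BCL2L11 encodes BIM, which binds every anti-apoptotic member and, like BMF, is held by dynein light chains. Its brightest probe set, 225606_at, read 371 on the array labelled RUNX2 and 572 on the empty vector array, 1.54-fold lower (log2 ratio -0.63). The probe set 1555372_at read 140 against 217, 1.55-fold lower, and 1558143_a_at read 157 against 216, 1.38-fold lower. The probe sets 1553088_a_at (119 against 165) and 1553096_s_at (109 against 141) were 1.39-fold and 1.30-fold lower. All 5 measured probe sets were thus lower, with a mean log2 ratio of -0.52 ± 0.11 (SD over 5 probe sets of 1 pair of arrays). The remaining 2, 208536_s_at (16.8 against 18.8) and 222343_at (26.4 against 27.8), were under the floor on both arrays.

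The BCL2L11 ratios lay closer together than those of MCL1 (SD 0.418 over 5 probe sets, 1 of them a bound). No BCL2L11 probe set reached 2-fold, and 5.41% of all measured probe sets were as low as 225606_at. All measured probe sets lay below 0 in 62 (15.0%) of the 413 genes with at least 5 of them. Several BIM splice forms exist, and the annotation used here does not assign the probe sets to them. In a bulk RNA sample, a smaller share of cells with a transcript and less of it per cell cannot be told apart, which holds for each value given here.

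The other BH3-only members were higher or near level. BID, which caspase-8 cleaves to link death receptors to mitochondria, read 284 against 249 in 211725_s_at, 267 against 251 in 227143_s_at and 197 against 144 in 204493_at. These are log2 ratios of 0.19, 0.09 and 0.45, all above 0, the first 2 being within the SD between probe sets of 1 gene. BIK, a BH3-only protein of the endoplasmic reticulum, had 1 probe set, 205780_at, with 310 against 221, 1.40-fold higher (log2 ratio 0.49). Together the 10 measured probe sets of the 4 BH3-only genes lay 4 above and 6 below 0. The anti-apoptotic members had 8 above and 1 below, and the effectors 3 above and 0 below. These counts lean on single genes, since BCL2L11 gave 5 of the 6 below and MCL1 5 of the 8 above. By gene, the BH3-only members lay 2 above and 2 below 0, the anti-apoptotic members 2 above and 1 below (BCL2, near the floor), and the effectors 2 above and 0 below. The background share above 0 is the 45.3% of probe sets and 42.7% of genes given before.

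**Figure D2:**
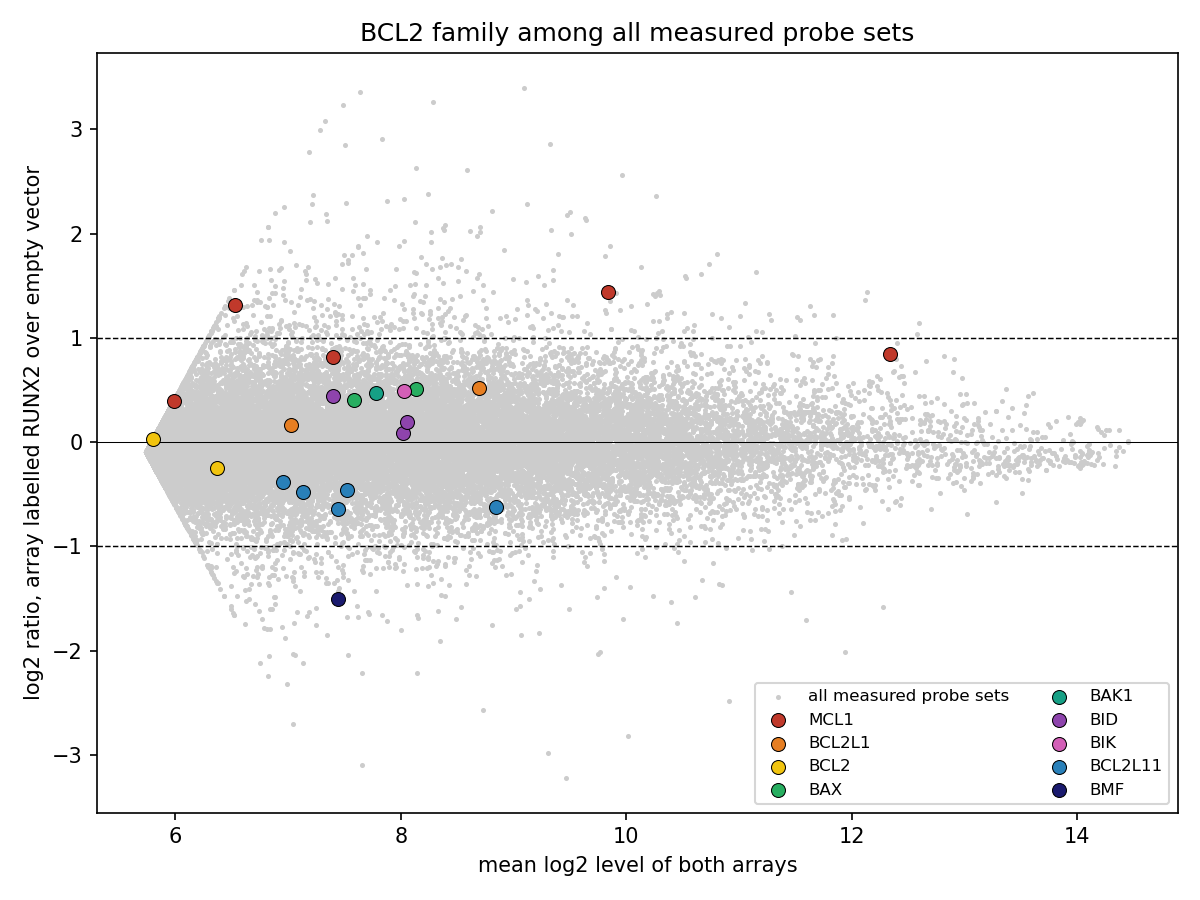
Log2 ratio (array labelled RUNX2 over empty vector) against the mean log2 level of both arrays for all 28610 measured probe sets in grey, with the 22 measured BCL2 family probe sets in colour by gene. Dashed lines mark 2-fold. BMF at -1.50 and 2 MCL1 probe sets at 1.31 and 1.44 lie outside them, and the 5 BCL2L11 probe sets lie between -0.64 and -0.38. The wedge at the left edge comes from the floor.

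Neighbouring genes of the pathway were taken from 7 lists and are given with 1 probe set per gene. Of the other BH3-only and BNIP genes, 6 of 7 with a probe set were measured, 1 passed 2-fold upwards and 0 downwards (1.42% and 1.47% of all measured genes did), and the median log2 ratio was 0.39. PMAIP1 encodes NOXA, the BH3-only protein that binds MCL-1 and marks it for degradation. It read 4989 on the array labelled RUNX2 and 2016 on the empty vector array in 204285_s_at, 2.47-fold higher, and was 2.34-fold higher in 204286_s_at. PMAIP1 and its binding partner MCL1 were thus both higher on the same array. BNIP3, a hypoxia-induced mitophagy receptor, was 1.82-fold higher (473 against 260), and BAD, which is switched off by growth factor signalling, was 1.49-fold higher (867 against 583).

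The other BCL2 homologs differed little. Of 7 with a probe set, 5 were measured, with 0 past 2-fold either way and a median of 0.23. BOK, an effector-like member, had 0.30 in its single measured probe set. BCL2L13 had 0.25 in its brightest, while its 4 measured probe sets ran from -0.32 to 0.36. BCL2L12 had 0.23, and BCL2L2, which encodes the survival protein BCL-w, had -0.22.

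Downstream of the mitochondria, 11 of 11 caspase and apoptosome genes with a probe set were measured, with 0 past 2-fold by the standing probe set and a median of 0.07. CASP9, the initiator caspase of the apoptosome, had -0.31, the nuclease ENDOG 0.41, CASP8, the initiator caspase of death receptors, 0.35, and the mitochondrial flavoprotein AIFM1 0.34. For CYCS, cytochrome c, the brightest probe set gave 0.34 and another gave 1.31. In the IAP family, some of whose members restrain caspases, 5 of 6 were measured, with 0 past 2-fold and a median of -0.18. XIAP, a direct inhibitor of caspases, read 2264 on the array labelled RUNX2 and 3527 on the empty vector array, 1.56-fold lower, and 5 of its 6 measured probe sets were lower, the other being a bound near the floor. BIRC7 had -0.53 and BIRC6 0.24.

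Of the death receptor genes, 10 of 11 were measured, with 0 past 2-fold and a median of 0.15. The death ligand TRAIL, TNFSF10, was the widest of them. It read 2857 on the array labelled RUNX2 and 5438 on the empty vector array, 1.90-fold lower, and its 3 probe sets ran from -0.93 to -0.75. The receptors FAS and TNFRSF10A had 0.53 and 0.47, with all 4 measured probe sets of FAS and all 3 of TNFRSF10A above 0. Among the partners and turnover factors of BCL2 proteins, 15 of 16 were measured, with 0 past 2-fold and a median of 0.04. DYNLL1, the dynein light chain that holds BIM, was 1.45-fold higher (5771 against 3982). CUL5, a ubiquitin ligase scaffold, had -0.40, and BCAP31, a membrane protein of the endoplasmic reticulum, had 0.36. The MCL-1 ubiquitin ligase HUWE1 went both ways, from -0.26 to 0.34 over 3 measured probe sets, the brightest of which had the same deposited value on both arrays, and the deubiquitinase USP9X had 0.08 in its brightest and up to 0.49 in its 3.

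Of the transcription factors known to act on BCL2 family genes, 11 of 11 with a probe set were measured, and 8 of them, RUNX2 by its brightest probe set included, lay below 0, against 57.3% of all measured genes. Their median was -0.21, with 0 past 2-fold upwards and 2 downwards. One of the 2 was RUNX2 by its brightest probe set, which goes against its other measured probe sets as given above. The other was REL, the NF-kB subunit c-Rel, with 1146 on the array labelled RUNX2 against 2960 on the empty vector array, 2.58-fold lower, and its 5 measured probe sets all lay below 0. NFKB1, the p50 precursor, was 1.57-fold higher (293 against 187). FOXO3, a known activator of the BIM gene, read 2036 against 3154, 1.55-fold lower, with its 4 measured probe sets between -0.63 and -0.26. FOXO1 had -0.54. MYC had -0.47 in its single measured probe set (2856 against 3945). With 2 arrays, no relation between a factor, a motif and a member can be tested.

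**Figure D3:**
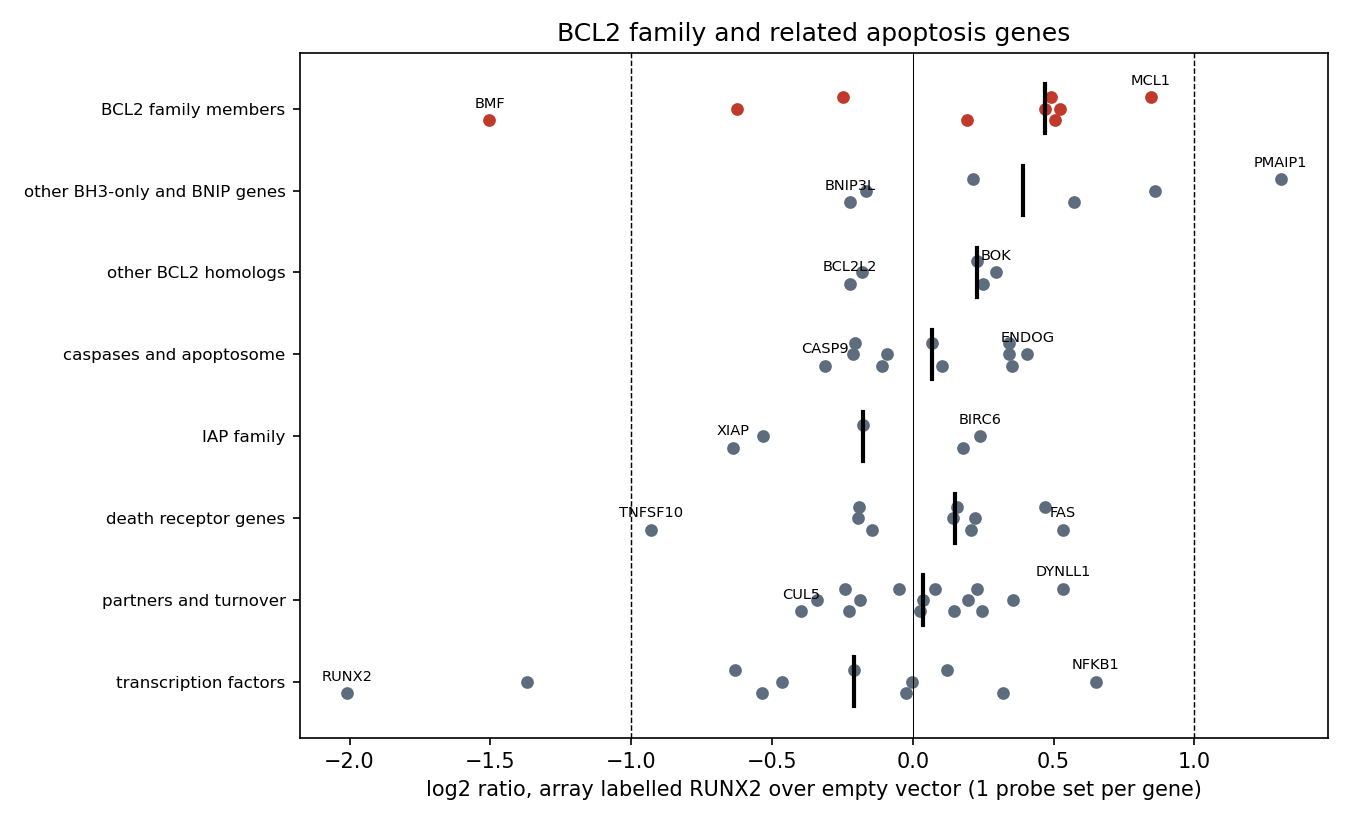
Log2 ratio (array labelled RUNX2 over empty vector) of each measured gene, 1 point per gene from its brightest probe set, for the BCL2 family members in red and 7 lists of related genes in grey. Thick bars are medians, dashed lines mark 2-fold, and the lowest and highest gene of each row are named. The members' median is 0.47, with BMF at -1.50 and MCL1 at 0.85.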

How the data were processed

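Total RNA of Ca9-22 cells with a RUNX2 vector or an empty vector was labelled and hybridised to 1 Affymetrix array per group, as the labels' protocols state. The authors deposited 1 linear intensity per probe set and array. The submitters' processing notes name MAS5; its version, scaling target and genome build are not given in the sources used here. Samples were grouped by title.

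In Python 3.11.15 (pandas 2.3.3), 62 control probe sets were left out, the 2% trimmed means were equalised, and each array's median served as floor. Genes came from the platform annotation, with symbols updated by Entrez ID in RefSeq (GRCh38.p14). A probe set with more than 1 symbol was not assigned to a gene. The members, lists and thresholds were chosen with earlier results of these data known. All members are named, and of each list the 3 genes with the widest ratios and those past 2-fold. HUWE1, USP9X, CASP9, CYCS, BCL2L2, FOXO1, FOXO3, MYC, KRT14, PTPRC and COL1A1 were named after their values were seen. The calculation was tested on simulated arrays with 4-fold changes in brighter genes only, so smaller or fainter differences were not covered. Alternatives covered scaling, floor, probe set choice and thresholds of 1.5-fold and 4-fold. Depth has no meaning for arrays, and with 1 array per group no test was made.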

Additional observations from a re-analysis of the deposited data

How the results depend on the processing

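Every member log2 ratio kept its sign under each scaling (deposited scale, equal medians, quantile normalization, loess), floor and probe set alternative that gave a value, which was 88 values for 9 genes. Of these, 86 moved by less than the SD between probe sets of 1 gene and 2 moved by more, both of BMF, at -0.54 with the floor at the 75th percentile and -1.17 when the floor was added to each value as an offset. Part of this agreement was fixed in advance. The probe set standing for each gene exceeded the floor on both arrays, so a floor at the 25th percentile or no floor repeated its value. The deposited scale and equal medians moved every ratio by 1 shared amount, smaller than the SD between probe sets. Other alternatives also repeated the value of some genes, as the mean over probe sets did where only 1 was measured. Single probe sets that fell under the floor at the 75th percentile on 1 array shrank further. They came to 0.19 for 214057_at of MCL1, 0.16 for 208478_s_at of BAX, and -0.11 for both 1555372_at and 1558143_a_at of BCL2L11. The MCL1 probe set 214056_at, 1 of the 2 at least 2-fold higher, gave no value with that raised floor. Its lowest log2 ratio among the alternatives was 0.79, short of 2-fold. The number of members at least 2-fold higher was 0, and it became 1, MCL1, at 1.5-fold and, in an alternative chosen after seeing the data, when any measured probe set could pass 2-fold. The number at least 2-fold lower was 1, and it became 0 with the floor at the 75th percentile, where BMF is a bound, 2 at 1.5-fold, where BCL2L11 joins, and 0 at 4-fold. The members' median log2 ratio lay between 0.35 and 0.56. Over all 12729 measured genes, the counts at least 2-fold higher and lower were 181 and 187. Over the same number of genes they were 114 and 91 with the offset, and 230 and 137 with equal medians. With the floor at the 75th percentile they were 112 and 79, but of only 8276 measured genes. No paired analysis was possible because each group has 1 array, and for the same reason no array could be left out. Signal near the floor limits BCL2 and BCL2A1.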
